A study of Mus musculus with 4 samples.

Results

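The members were 89 genes, nearly all encoding subunits of the oxidative phosphorylation complexes, counted in sorted mouse alveolar type 2 (AT2) cells. They were chosen by name from the gene symbols of the count tables: subunits of complex I (Ndufa, Ndufb, Ndufc, Ndufs and Ndufv), complex III (Uqcr), complex IV (Cox4 to Cox8) and complex V (Atp5), and the Nd, Co, Atp and Cytb genes of the mitochondrial genome. Of 93 matching symbols, 89 held at least 10 unique molecular identifiers (UMIs, each counted as 1 captured RNA molecule) over the 4 libraries, among 14209 genes that did so. They comprise 75 nuclear genes, Cox6a2, which is described apart, and 13 mitochondrial genes. The names also bring in 3 nuclear genes that encode assembly or coupling factors rather than subunits, Cox7a2l, Atp5s and Atp5sl, which were counted with the complex of their name. Ndufa4, despite its name, was counted with complex IV and not with complex I. The 4 symbols under 10 UMIs were Cox7b2, Cox8b and Cox8c, each at 0 UMIs in every library, and Ndufa4l2, with 7 UMIs in all. For Cox7b2, Cox8b and Cox8c, the limit that a count of 0 allows (3 UMIs) is 0.275 counts-per-million (CPM, of all UMIs of a library's kept cells) in the shallowest library and 0.0942 CPM in the deepest.

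Single cells were sequenced from Sftpc-creER;Rosa26-mTmG mice, in which 4 doses of tamoxifen switch cells that use the Sftpc promoter, and their descendants, to membrane GFP. PBS or bleomycin, a DNA-damaging drug used to injure the lung, was put into the trachea 14 days after tamoxifen, and GFP-positive cells without the leukocyte marker CD45 or the endothelial marker CD31 were sorted. The 4 groups were 3-month PBS and 12-month PBS, both taken at day 0, and 3-month bleomycin and 12-month bleomycin, both given 0.8 U/kg and taken at day 30. All groups share the genotype, the tamoxifen and the sort. Each group is 1 library of 3 pooled mice, so no difference below has a replicate check or a test, and drug and day of harvest cannot be told apart. The comparisons ask how bleomycin and PBS libraries differ at each age, and how the ages differ within a treatment. Values for 4 libraries are given throughout in the order 3-month PBS, 12-month PBS, 3-month bleomycin and 12-month bleomycin.

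Oxidative phosphorylation passes electrons from NADH and succinate along complexes I to IV of the inner mitochondrial membrane to oxygen, and complex V, the ATP synthase, makes ATP from the proton gradient this builds. Most subunits are encoded in the nucleus and imported, while a small core is encoded in mitochondrial DNA, so that complexes I, III, IV and V each mix products of both genomes. AT2 cells secrete surfactant, act as progenitors of the alveolar epithelium and are rich in mitochondria.

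Of 10911 cell barcodes, 9627 were kept (2308, 2570, 2299 and 2450), each with at least 500 genes, at most 20% of UMIs from genes with the mt- prefix, and at least 5% of UMIs from Sftpc, the surfactant protein C gene. The kept cells held 10896642, 13289829, 20832613 and 31849343 UMIs, with medians of 4563.5, 5137.5, 8552 and 12520 per cell, and pairs of libraries shared 7 to 14 barcodes. All 12 AT2 markers were detected, Sftpc itself being part of the rule. The 9 macrophage markers summed to 6.33, 20.5, 23.5 and 87.8 CPM, and 2.60%, 5.88%, 15.5% and 55.0% of kept cells held at least 1 of their UMIs. The 6 B cell markers summed to 26.8, 27.3, 42.8 and 146 CPM and the 5 neutrophil markers to 12.9, 16.1, 8.02 and 112 CPM. The 8 markers of transitional alveolar cells, such as Cldn4 and Krt8, summed to 769, 588, 1202 and 1656 CPM. Depth per cell and the transitional markers were thus higher in both bleomycin libraries, and each of these marker sums was highest in the 12-month bleomycin library. Their part in the results was not tested beyond the values given below by depth and without cells holding macrophage UMIs. The 3-month PBS library stood apart in heat shock genes, with Hspa1b at 206 CPM against 3.11 to 4.42 CPM in the other 3 libraries, and the part of this in the 3-month ratios was not tested.

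Promoters of 6 nuclear members are shown, each chosen for the reason given next. Uqcrc1, Atp5b and Ndufa9 had the highest ratios of bleomycin to PBS at 12 months among the genes of complexes III, V and I. Ndufa6 had the lowest of all nuclear members there, and Cox6a1 is the widely expressed counterpart of Cox6a2. Ndufb4 was higher with bleomycin at 3 months and lower at 12, as were Ndufb3, Ndufb10, Ndufb11 and Ndufs7. The runs are RefSeq sequence on GRCm38.p6, read 5′ to 3′ along the gene's strand up to its start and cut short where another annotated exon begins. Capitals mark a match, on either strand, to GCGC, any base and then TGCGC, the core of the binding motif of NRF1, a transcription factor known for activating respiratory chain genes.
Uqcrc1 promoter (chr9:108936398-108936632, plus strand, 235 bases): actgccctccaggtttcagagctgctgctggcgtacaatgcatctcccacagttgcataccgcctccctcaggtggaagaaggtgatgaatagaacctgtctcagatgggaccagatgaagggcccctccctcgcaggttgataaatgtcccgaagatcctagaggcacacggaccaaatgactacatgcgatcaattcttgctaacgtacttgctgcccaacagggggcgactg
Atp5b promoter (chr10:128083057-128083272, plus strand, 216 bases): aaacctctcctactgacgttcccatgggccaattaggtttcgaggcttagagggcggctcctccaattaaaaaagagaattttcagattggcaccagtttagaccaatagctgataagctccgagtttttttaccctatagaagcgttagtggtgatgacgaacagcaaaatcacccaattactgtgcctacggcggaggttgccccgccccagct
Ndufa9 promoter (chr6:126849145-126849394, minus strand, 250 bases): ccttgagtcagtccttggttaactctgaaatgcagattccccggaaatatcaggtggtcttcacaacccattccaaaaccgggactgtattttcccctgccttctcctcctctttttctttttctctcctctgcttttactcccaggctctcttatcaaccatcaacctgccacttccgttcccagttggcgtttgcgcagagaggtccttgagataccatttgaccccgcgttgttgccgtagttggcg
Cox6a1 promoter (chr5:115348982-115349129, minus strand, 148 bases): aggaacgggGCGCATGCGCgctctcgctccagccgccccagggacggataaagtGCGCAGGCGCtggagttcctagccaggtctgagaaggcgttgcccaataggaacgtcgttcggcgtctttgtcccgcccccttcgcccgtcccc
Ndufa6 promoter (chr15:82354323-82354541, minus strand, 219 bases): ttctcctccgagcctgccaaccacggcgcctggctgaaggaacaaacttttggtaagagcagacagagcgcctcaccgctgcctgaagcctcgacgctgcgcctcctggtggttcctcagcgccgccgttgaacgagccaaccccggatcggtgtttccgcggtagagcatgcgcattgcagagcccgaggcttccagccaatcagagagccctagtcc
Ndufb4 promoter (chr16:37654454-37654618, minus strand, 165 bases): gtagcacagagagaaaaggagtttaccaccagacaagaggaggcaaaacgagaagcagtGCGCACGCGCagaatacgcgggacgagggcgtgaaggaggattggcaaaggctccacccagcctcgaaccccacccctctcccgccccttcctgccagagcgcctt
Cox6a1 holds 2 such matches and Ndufb4 holds 1, and the other runs hold none. In the whole 300-base windows, which reach 50 bases past the start, Uqcrc1 has 2 matches, Ndufa6 has 1 and Ndufb4 has 3.

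Promoter windows of this length were found for 64 of the 75 nuclear members. The NRF1 motif lay on either strand in 14 of them (21.9%), against 4.60% of all 32851 windows. The ETS motif CCGGAAG, bound by factors such as GABPA, lay in 13 (20.3%, against 8.86%), and the YY1 motif, AAGATGG followed directly by CGG, in 5 (7.81%, against 0.852%). GGGCGG, the SP1 motif, lay in 25 (39.1%, against 35.7%). At least 1 of the first 3 motifs lay in 28 of the 64 windows (43.8%) and in 13.1% of all windows. Each motif was counted separately, with overlaps between motifs allowed. These are matches of letters, not sites shown to be bound. The genes for the factors themselves were scarce. Nrf1 stood at 13.9, 12.0, 10.5 and 10.4 CPM, Gabpa at 10.1, 9.93, 7.39 and 8.54 CPM and Yy1 at 33.2, 32.7, 24.4 and 23.9 CPM. Each of these 3 genes was lower with bleomycin at both ages, although the counting intervals of Nrf1 and Gabpa at 12 months hold a ratio of 1.

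The nuclear members together took 2.79%, 2.69%, 3.15% and 3.17% of all UMIs of the kept cells. Their sum was 1.13-fold higher with bleomycin at 3 months (exact 95% interval 1.12 to 1.13, which like every interval here covers counting error only) and 1.18-fold higher at 12 months (1.18 to 1.19). The 13 mitochondrial members took 5.34%, 5.25%, 3.54% and 2.36%, a sum 1.51-fold lower with bleomycin at 3 months and 2.22-fold lower at 12 months. For each nuclear UMI there were 1.92, 1.96, 1.12 and 0.745 mitochondrial ones. Nuclear and mitochondrial genes of the same complexes thus stood apart in opposite directions in both bleomycin libraries.

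At 3 months 66 of the 75 nuclear members had a log2 ratio of bleomycin to PBS above 0 (88.0%, against 52.6% of all genes tested), and at 12 months 64 did (85.3%, against 57.9%). The median log2 ratio of the members was 0.24 and 0.32, against 0.04 and 0.13 over all genes with 10 or more UMIs. Among genes at a mean of 20 CPM or more over the 4 libraries, 64 and 62 of 72 nuclear members were above 0 (88.9% and 86.1%), against 50.4% and 57.1% of all genes at that level. Large ratios were few: 11 members were at least 1.5-fold higher at 3 months and 12 at 12 months, beside backgrounds of 20.5% and 26.2%. At 20 CPM or more these were 10 (13.9%) and 11 (15.3%) of 72, beside 8.72% and 15.9%, so the number past 1.5-fold is not a result about the members. No nuclear member was 1.5-fold lower at either age, where the backgrounds were 14.4% and 14.1%, or 9.39% and 9.74% at 20 CPM or more. Counting intervals lay above a ratio of 1 for 57 and 62 members, below it for 6 and 5, and held it for 12 and 8. Intervals were not counted in this way over all genes, so these numbers are not read as a result about the members.

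The 3-month and the 12-month comparison use different libraries, and their lists of nuclear members at least 1.5-fold higher shared 10 genes, 90.9% of the 11 at 3 months and 83.3% of the 12 at 12 months. They were Ndufa9, Ndufs1 and Ndufs4 of complex I, Uqcrc1 and Uqcrc2 of complex III, Cox5a of complex IV, and Atp5b, Atp5f1, Atp5o and Atp5sl. Ndufv1 was in the 3-month list alone, and Cox4i2 and Ndufv3 in the 12-month list alone. The same overlap was not counted over all genes, so it is not read as a result about the members. Over the 72 nuclear members at a mean of 20 CPM or more, the log2 ratios at both ages had a Pearson r of 0.87 and a Spearman rho of 0.84 (0.77 and 0.76 over all 4322 genes at that level). This is a correlation across genes, which share libraries and depth, and no test goes with it.

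**Figure D1:**
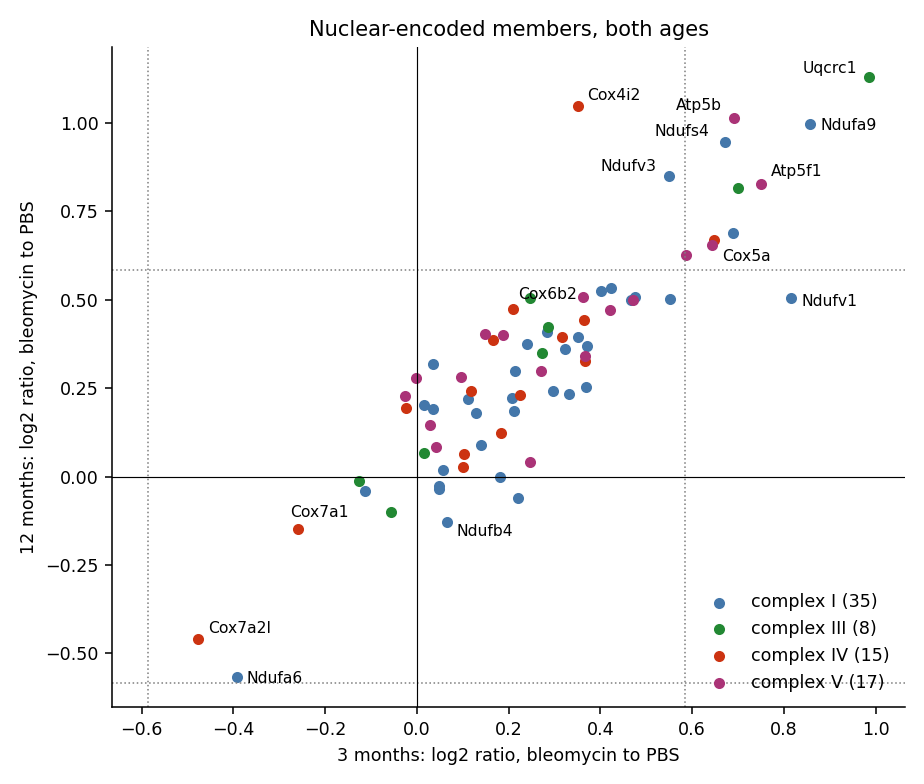
Log2 ratio of bleomycin to PBS at 3 months (x axis) and at 12 months (y axis) for each of the 75 nuclear members, coloured by complex. Most points lie above 0 on both axes, Uqcrc1 is the highest on both, and Cox7a2l and Ndufa6 are the lowest at 3 and 12 months.

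In complex I, the NADH dehydrogenase, 33 of 35 nuclear members were higher with bleomycin at 3 months and 28 at 12 months, with median log2 ratios of 0.24 and 0.25. Ndufa9 is an accessory subunit at the junction of the matrix and membrane arms and stood at 42.8, 43.1, 77.6 and 86.1 CPM. Both bleomycin libraries lay above both PBS libraries, 1.81-fold at 3 months (1.64 to 2.02) and 2.0-fold at 12 months (1.82 to 2.19). Ndufs4, an accessory subunit added late in assembly, stood at 72.9, 72.3, 116 and 139 CPM. Its log2 ratios were 0.67 and 0.95. Ndufv3, an accessory subunit of the NADH-binding module, stood at 151, 148, 220 and 266 CPM and had log2 ratios of 0.55 and 0.85.

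The catalytic subunits of complex I did not all follow the same course. Ndufv1, which binds the flavin that takes electrons from NADH, stood at 45.2, 53.1, 79.6 and 75.4 CPM. Its ratio was larger at 3 months (1.76-fold, 1.59 to 1.95) than at 12 months (1.42-fold, 1.31 to 1.55), and the difference of the log2 ratios was -0.31 (counting interval -0.50 to -0.12). Ndufs1, the large iron-sulfur subunit, stood at 16.4, 15.1, 26.5 and 24.3 CPM, with a log2 ratio of 0.69 at both ages. In both genes each bleomycin library stood above both PBS libraries.

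Ndufa6, an accessory subunit of the matrix arm, was the clearest exception. It stood at 596, 614, 454 and 414 CPM, so both bleomycin libraries lay below both PBS libraries. It was 1.31-fold lower at 3 months (1.27 to 1.36) and 1.48-fold lower at 12 months (1.44 to 1.52), just inside the 1.5-fold line. In cells of 4000 to 8000 UMIs its log2 ratios were -0.25 and -0.30, against -0.39 and -0.57 in all kept cells. Ndufa7, also an accessory subunit, stood at 535, 558, 495 and 542 CPM, with log2 ratios of -0.11 and -0.04. Ndufb4, an accessory subunit of the membrane arm, stood at 299.6, 316, 314 and 289 CPM, and its log2 ratio was 0.07 at 3 months and -0.13 at 12 months.

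In complex III, which passes electrons from ubiquinol to cytochrome c, 6 of 8 nuclear members were higher at each age, with medians of 0.26 and 0.39. Uqcrc1 encodes a large core protein on the matrix side and stood at 77.5, 86.4, 153 and 189 CPM. It had the highest ratio of all nuclear members at both ages, 1.98-fold (1.84 to 2.14) and 2.19-fold (2.05 to 2.33). A UMI was found in 29.0%, 34.5%, 68.9% and 82.2% of cells, of unequal depth, so these shares also rise with the UMIs per cell. Its partner Uqcrc2 stood at 53.7, 58.6, 87.3 and 103 CPM, with log2 ratios of 0.70 and 0.82. Uqcrfs1, the Rieske iron-sulfur protein, stood at 115, 129, 139 and 164 CPM, with log2 ratios of 0.27 and 0.35. The small subunits were split. Uqcrb, with log2 ratios of 0.25 and 0.50, and Uqcrq, with 0.29 and 0.42, lay near Uqcrfs1, and Uqcr11 had 0.02 and 0.07. Uqcrh, the hinge protein, stood at 654, 629, 599 and 624 CPM, and Uqcr10 at 597, 593, 574 and 553 CPM. Their log2 ratios lay between -0.13 and -0.01.

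In complex IV, cytochrome c oxidase, with Ndufa4 included, 12 of 15 nuclear members were higher at 3 months and 13 at 12 months. The medians were 0.18 and 0.24. Cox5a, which joins the mitochondrially encoded core early in assembly, stood at 294, 277, 461 and 440 CPM. It was 1.57-fold higher at 3 months (1.51 to 1.63) and 1.59-fold higher at 12 months (1.53 to 1.65). Cox7a2l, which helps to join complexes III and IV into supercomplexes, was the other clear exception and stood at 413, 391, 297 and 285 CPM. Both bleomycin libraries lay below both PBS libraries, 1.39-fold lower at 3 months (1.34 to 1.45) and 1.37-fold lower at 12 months (1.33 to 1.42).

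In complex V 15 of 17 nuclear members were higher at 3 months and all 17 at 12 months, with medians of 0.27 and 0.40. Atp5b, the catalytic beta subunit, stood at 321, 320, 519 and 646 CPM. It was 1.62-fold higher at 3 months (1.56 to 1.68) and 2.02-fold higher at 12 months (1.96 to 2.09). Its alpha partner Atp5a1 stood at 305, 299, 408 and 415 CPM, with log2 ratios of 0.42 and 0.47, so the subunits that form the catalytic ring in equal numbers had unequal ratios. In the stalk that holds this ring, Atp5f1 stood at 352, 355, 592 and 631 CPM and Atp5o at 316, 303, 474 and 468 CPM. The log2 ratios were 0.75 and 0.83 for Atp5f1, and 0.59 and 0.63 for Atp5o.

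Splitting the nuclear members by role, a split made after their values were seen, gave 20 core subunits (7 of complex I, Uqcrc1, Uqcrc2, Uqcrfs1 and 10 of the ATP synthase) and 49 accessory ones. The median log2 ratio was 0.38 at 3 months and 0.49 at 12 months for the core subunits, and 0.19 and 0.24 for the accessory ones. In complex III the 3 core genes had medians of 0.70 and 0.82, and the 5 accessory genes 0.02 and 0.07. The core genes had longer transcripts (median 1697 bases, against 865) and lower levels (median of the mean CPM 262, against 437). Across the nuclear members, Spearman's rho of the ratio with transcript length was 0.45 and 0.31 (-0.24 at both ages over all genes) and with mean CPM -0.55 and -0.48 (0.06 and 0.05 over all genes). The part of length and level in the split was not tested.

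Several members share near-identical sequence with another annotated gene, which can limit what their UMIs show. A stretch of at least 100 bases at 95% identity with another gene was found for 44 of the 89 members. For 19 of them that gene was itself counted. The search took both strands and did not set copies apart from genes that overlap a member or share a repeat with it. Atp5h, a subunit of the ATP synthase stalk, stood at 568, 545, 685 and 671 CPM, while its copy Gm10250 stood at 230, 185, 104 and 82.0 CPM. The log2 ratios of Atp5h were 0.27 and 0.30, those of the copy -1.15 and -1.17, and those of their sum -0.02 and 0.04, so the higher value of Atp5h was not kept when the copy was added. Ndufb6, an accessory subunit of complex I, had log2 ratios of 0.55 and 0.50, its sequence partner Toporsos -0.75 and -0.79, and their sum 0.17 and 0.13. For Cox5b the sum with its copy Gm11273 had log2 ratios of 0.17 and 0.30, against 0.32 and 0.40 for Cox5b alone. The genes that share sequence with Atp5g1 held 37.1%, 35.8%, 32.7% and 34.6% as many UMIs as Atp5g1 itself. For Ndufc1 they held more UMIs than the member in every library (416%, 312%, 284% and 308%), mostly from Dynll1. A shared stretch need not mean shared UMIs, and its part in the log2 ratios of Ndufc1 (0.11 and 0.22) was not tested. These pairs were looked at after their values had been seen.

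Complex IV has subunits in versions that differ between tissues or conditions. Cox4i2, known from the lung and for its response to low oxygen, stood at 19.4, 16, 24.7 and 33.0 CPM. It was 1.28-fold higher with bleomycin at 3 months (1.09 to 1.51) and 2.07-fold higher at 12 months (1.78 to 2.41), and the log2 ratios differed by 0.70 (counting interval 0.38 to 1.01). A UMI of Cox4i2 was found in 8.23%, 7.70%, 18.8% and 32% of cells, of unequal depth. Its widely expressed counterpart Cox4i1 stood far above it at 1199, 1170, 1286 and 1193 CPM, with log2 ratios of 0.10 and 0.03. CPM of 3′ tag libraries are not scaled by transcript length.

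Cox6b2, best known from testis, stood at 48.3, 56.7, 55.8 and 78.8 CPM, beside 719, 675, 781 and 799 CPM for Cox6b1. Its log2 ratios were 0.21 and 0.47, and those of Cox6b1 0.12 and 0.24. Cox7a1, the heart and muscle form, stood at 20.7, 14.1, 17.3 and 12.7 CPM. Its log2 ratios were -0.26 and -0.15, with a 12-month interval that holds a ratio of 1, whereas the counterpart Cox7a2 had 0.17 and 0.39. The counterparts of the undetected genes were abundant: Cox7b stood at 329, 304, 424 and 413 CPM and Cox8a at 1085, 1038, 1164 and 1084 CPM. Ndufa4, the counterpart of Ndufa4l2, stood at 672, 649, 866 and 813 CPM.

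Cox6a2 (ENSMUSG00000030785, chr7:128205435-128206387 on the minus strand of GRCm38) is the heart and skeletal muscle form of subunit VIa, and is also known from plasmacytoid dendritic cells. It stood at 266, 323, 194 and 53.9 CPM, from 2897, 4293, 4042 and 1716 UMIs. The 12-month bleomycin library stood far below the other 3. The ratio of bleomycin to PBS was 1.37-fold lower at 3 months (1.31 to 1.44) and 6.0-fold lower at 12 months (5.67 to 6.34), log2 ratios of -0.45 and -2.58 whose difference was -2.13 (counting interval -2.24 to -2.02). Among the 4322 genes at a mean of 20 CPM or more, its ratio was the 12th lowest at 12 months and the 636th lowest at 3 months. Between the ages, Cox6a2 was 1.22-fold higher at 12 months in PBS (1.16 to 1.27) and 3.60-fold lower at 12 months in bleomycin (3.40 to 3.81), the lowest ratio of all 4322 genes in that comparison.

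The widely expressed Cox6a1 stood at 643, 644, 751 and 755 CPM, with a log2 ratio of 0.23 at both ages, so the low value of Cox6a2 was not shared by the whole subunit. A Cox6a2 UMI was found in 56.8%, 66.5%, 60.3% and 29.1% of cells. After thinning each cell to 3000 UMIs the shares were 46.7%, 52.5%, 36.4% and 12.7%, and in cells with 4000 to 8000 UMIs the level was 268, 321, 238 and 108 CPM. There the log2 ratios were -0.17 at 3 months and -1.57 at 12 months. In cells of 8000 to 12000 UMIs, which number 86, 126, 909 and 715, the level was 292, 334, 195 and 85.2 CPM, with log2 ratios of -0.58 and -1.97. The ratio thus varied with the depth compared, and the 12-month bleomycin library was the lowest in both depth ranges.

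Cox6a2 was also counted in cells that hold less than 5% Sftpc UMIs and were left out of the comparison: 214, 139, 52.3 and 57.1 CPM. In cells under 1% Sftpc, which should hold few AT2 cells, a Cox6a2 UMI was found in 23.9% of 46 cells of the 12-month PBS library (median 3187 UMIs), in 3.03% of 33 of the 3-month bleomycin library (3813 UMIs) and in 13.0% of 92 of the 12-month bleomycin library (5320.5 UMIs). Such cells stood at 167 CPM (112 to 240) in the 12-month PBS library and 17.9 CPM (3.68 to 52.2) in the 3-month bleomycin library. In the 12-month bleomycin library they stood at 74.6 CPM (56.0 to 97.3), not below the 53.9 CPM of the kept cells. That value came from 54 UMIs in 12 of the 92 cells. What part of the level in kept cells is background was not tested. Plasmacytoid dendritic markers summed to 16.6, 12.8, 11.2 and 17.7 CPM and striated muscle markers to 2.66, 2.86, 3.98 and 2.29 CPM over the 4 libraries. The part of such cells in the Cox6a2 counts was not tested. Without the cells that hold a macrophage UMI, Cox6a2 stood at 266, 323, 188 and 59.0 CPM. The low level of the 12-month bleomycin library also held at every Sftpc share: in kept cells grouped from low to high Sftpc share it was 26.8, 58.8, 61.4 and 42.8 CPM, against 348, 356, 299.8 and 287 CPM in the 12-month PBS library.

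**Figure D2:**
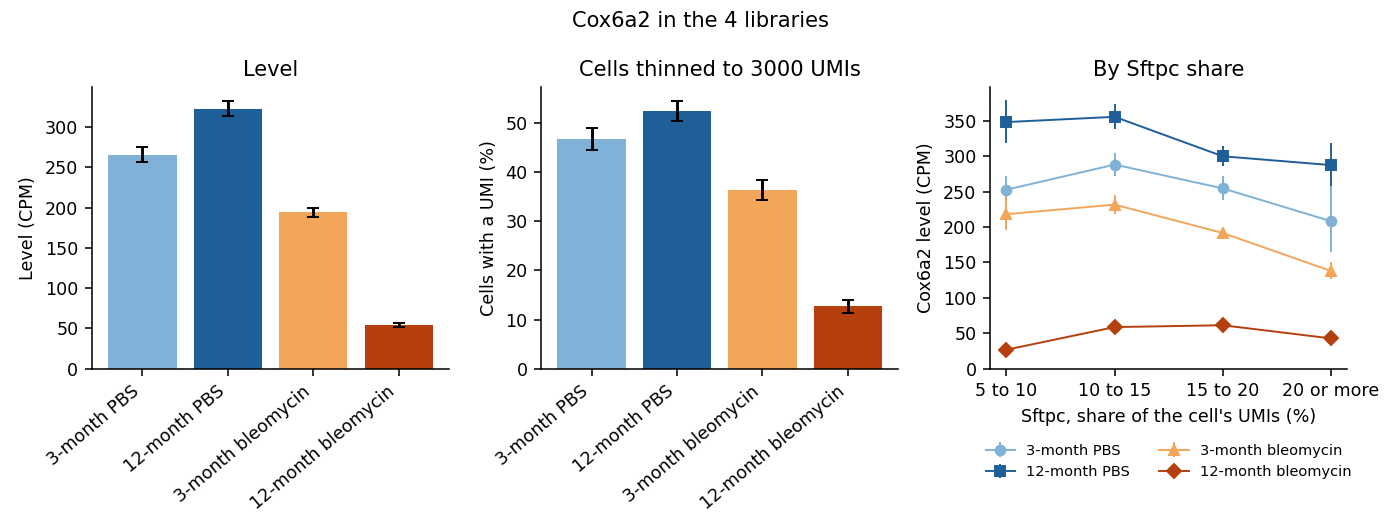
Cox6a2 in the 4 libraries: level in CPM (left), percentage of cells with a UMI after thinning to 3000 UMIs (middle) and level in cells grouped by their Sftpc share (right), with exact 95% intervals of counting. The 12-month bleomycin library is the lowest in each panel, with 53.9 CPM, 12.7% and at most 61.4 CPM in any Sftpc group.

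All 13 mitochondrial members were lower with bleomycin at both ages, with counting intervals below a ratio of 1 for each (47.4% and 42.1% of all genes were lower). The intervals of all genes were not counted. At 3 months 9 were at least 1.5-fold lower (69.2%, beside 14.4% of all genes), and at 12 months all 13 (beside 14.1%). Their median log2 ratio was -0.69 and -1.38. The mitochondrial genome is transcribed from both strands into long precursors that are cut into single messages, so these 13 genes share their transcription and are not independent. The median per complex was -0.95 and -1.45 for the 7 genes of complex I, -0.55 and -1.20 for the 3 of complex IV and -1.10 and -1.35 for the 2 of complex V.

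mt-Nd6, which encodes a membrane subunit of complex I, is the only member read from the light strand, and its ratio lay farthest below 1 at both ages. It stood at 24.7, 22.1, 7.15 and 3.83 CPM, from 269, 294, 149 and 122 UMIs, and was 3.45-fold lower at 3 months (2.82 to 4.25) and 5.78-fold lower at 12 months (4.66 to 7.19). mt-Nd5, which lies opposite to its end, stood at 425, 390, 194 and 109 CPM, 2.20-fold and 3.56-fold lower. The order of the libraries was the same in both genes. mt-Nd4l stood at 333, 255, 107 and 70.1 CPM and was 3.11-fold and 3.64-fold lower, while mt-Nd4, whose message it shares, stood at 3614, 3602, 2322 and 1471 CPM and was 1.56-fold and 2.45-fold lower.

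The remaining complex I genes of the mitochondrial genome differed less than mt-Nd6, mt-Nd5 and mt-Nd4l. mt-Nd2 stood at 2250, 1962, 1166 and 720 CPM, with log2 ratios of -0.95 and -1.45. mt-Nd3 stood at 709, 588, 440 and 226 CPM, with log2 ratios of -0.69 and -1.38. mt-Nd1 differed least of them, at 5971, 5577, 4417 and 3039 CPM, 1.35-fold and 1.84-fold lower.

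In complex III, mt-Cytb, the cytochrome b that holds both quinone sites, stood at 5292, 5740, 3428 and 2439 CPM, 1.54-fold and 2.35-fold lower. Its nuclear partners Uqcrc1 and Uqcrc2 lay on the other side of 1 in both comparisons. The 3 catalytic subunits of complex IV had unequal ratios. mt-Co1, which holds the oxygen-binding centre, stood at 10887, 11123, 6558 and 4088 CPM and was 1.66-fold and 2.72-fold lower. mt-Co3 stood at 10553, 10147, 7203 and 4425 CPM, 1.46-fold and 2.29-fold lower. mt-Co2, which takes electrons from cytochrome c, differed least of all 13, at 3909, 3793, 3248 and 2305 CPM, 1.20-fold and 1.65-fold lower.

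In complex V mt-Atp6, part of the proton channel, stood at 9270, 9243, 6263 and 4708 CPM, 1.48-fold and 1.96-fold lower. mt-Atp8, which overlaps mt-Atp6 on the same message, stood at 130, 97.2, 41.8 and 29.4 CPM, 3.11-fold and 3.31-fold lower. The overlapping pairs mt-Atp8 and mt-Atp6, and mt-Nd4l and mt-Nd4, share sequence positions, and how UMIs were divided between them is not known here. Within the mitochondrial sum, mt-Co1 took 20.4%, 21.2%, 18.5% and 17.3%, mt-Co2 7.32%, 7.22%, 9.18% and 9.75%, and mt-Nd1 11.2%, 10.6%, 12.5% and 12.9%.

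**Figure D3:**
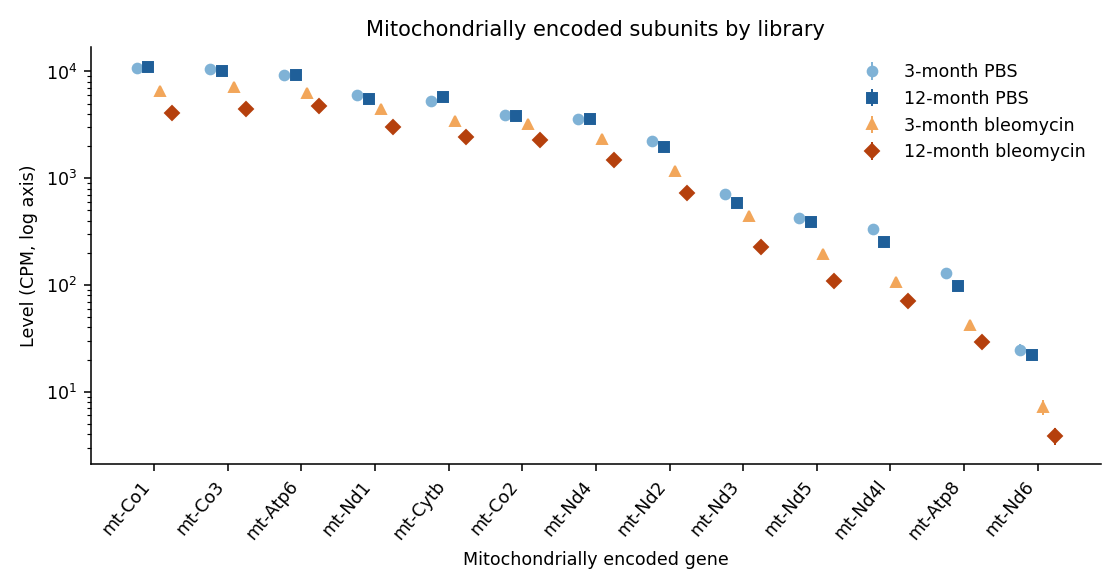
Level of each of the 13 mitochondrial members (y axis, CPM on a log axis) in the 4 libraries, with genes ordered by mean level along the x axis and bars for exact Poisson 95% intervals. The bleomycin libraries lie below the PBS libraries for every gene, and the gap is widest for mt-Nd6, from 24.7 to 7.15 CPM at 3 months and from 22.1 to 3.83 CPM at 12 months.

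Depth per cell moved with the mitochondrial share. The median cell held 241, 257, 295 and 268 mitochondrial member UMIs and 129, 137, 266 and 378 nuclear ones, so the mitochondrial count per cell was nearly level while the nuclear count was higher in the bleomycin libraries, whose cells had more UMIs in all. Within each library, cells of higher depth had a lower mitochondrial share: in the 3-month PBS library the median over cells was 6.27% in cells of 2000 to 4000 UMIs and 3.92% in cells of 8000 to 12000 UMIs. In cells of 6000 to 8000 UMIs the median share was 4.32%, 4.56%, 3.63% and 3.01%, and in cells of 2000 to 4000 UMIs it was 6.27%, 6.10%, 7.06% and 5.46%, where the 3-month bleomycin library was the highest and the bleomycin libraries held 142 and 49 cells. The median nuclear share in cells of 6000 to 8000 UMIs was 2.71%, 2.61%, 3.10% and 3.10%.

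In cells of 4000 to 8000 UMIs (1412, 1830, 834 and 362 cells, with medians of 5213, 5455, 6542.5 and 6505.5 UMIs) the mitochondrial members took 5.01%, 5.08%, 4.09% and 3.84%. Their median log2 ratio there was -0.37 at 3 months and -0.59 at 12 months, 12 of 13 were lower at each age, and 4 (beside 13.6% of all genes) and 7 (beside 11.1%) were at least 1.5-fold lower. mt-Nd4l, mt-Nd5, mt-Nd6 and mt-Atp8 were in both sets, mt-Nd2, mt-Co1 and mt-Cytb in the 12-month set alone, and mt-Co2 had a log2 ratio of 0.01 at both ages. mt-Nd6 had -1.12 and -2.06. The nuclear members took 2.79%, 2.68%, 3.14% and 3.15% in these cells, 67 and 69 of 75 were higher, against 57.0% and 65.2% of all genes, and 7 (beside 19.5%) and 9 (beside 29.4%) were higher by at least 1.5-fold. Their median log2 ratios there were 0.21 and 0.27, against 0.09 and 0.24 over all genes. The all-gene values in these cells include genes with few or no UMIs there. For such genes the 0.5 UMIs added to each sum raise the ratio, because the bleomycin totals are smaller. These were 5309069 and 2282997 UMIs, against 7616896 and 10228358 with PBS. The 12-month medians of the members and of all genes can thus not be compared closely, and no background at 20 CPM or more was taken here. Uqcrc1 had log2 ratios of 0.83 and 0.79 there, Atp5b 0.51 and 0.67 and Ndufa9 0.76 and 0.48. Without the cells that hold a macrophage UMI, the mitochondrial share was 5.33%, 5.26%, 3.60% and 2.47%.

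**Figure D4:**
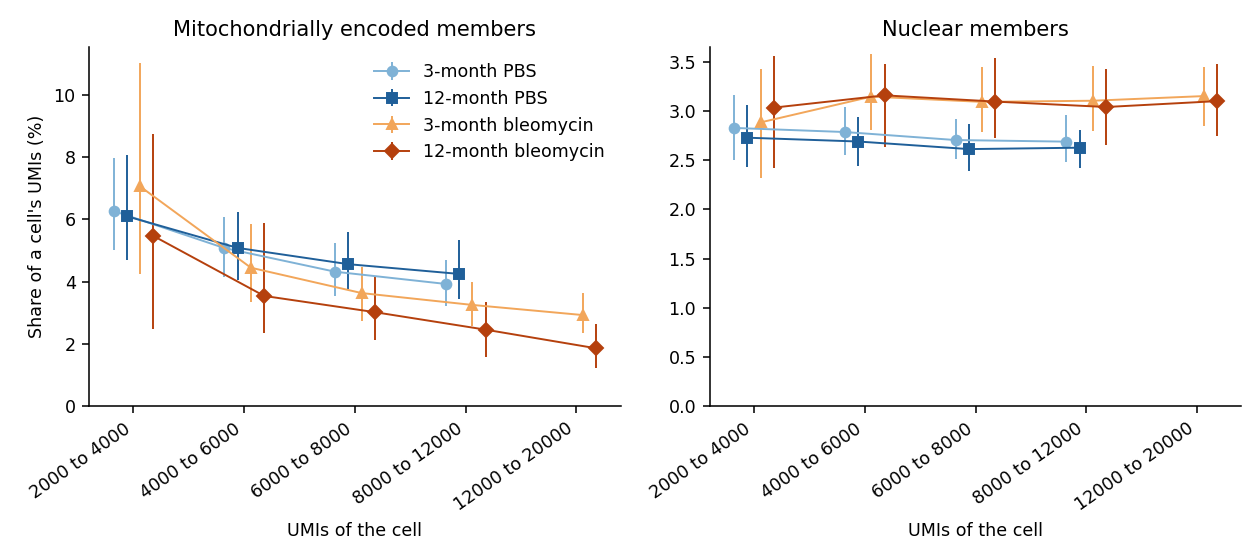
Median share of a cell's UMIs from the mitochondrial (left) and nuclear (right) members (y axes, percent) in cells grouped by their total UMIs (x axis), 1 line per library, with bars from the 25th to the 75th percentile of cells. The mitochondrial share is lower in deeper cells of each library, while the nuclear share of the bleomycin libraries in cells of 6000 to 8000 UMIs (3.10% in both) lies above that of the PBS libraries (2.71% and 2.61%).

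The PBS libraries of both ages were close to each other. At 12 against 3 months, 26 of 75 nuclear members were higher (34.7%, beside 38.4% of all genes), with a median log2 ratio of -0.03 beside -0.10 over all genes, and none reached 1.5-fold in either direction (backgrounds 11.8% higher and 12.5% lower, or 2.15% and 2.87% at 20 CPM or more, where 31.4% of all genes were higher). Cox7a1, at 20.7 and 14.1 CPM, had the ratio farthest from 1, a log2 ratio of -0.55. At a mean of 20 CPM or more the lowest were Cox4i2 (-0.28), Atp5e, a small ATP synthase subunit (-0.27), Cox7a2 (-0.19) and Cox7c, a small complex IV subunit (-0.17). Cox6b2 stood at 48.3 and 56.7 CPM, a log2 ratio of 0.23. Of the mitochondrial members 11 of 13 were lower (beside 61.6% of all genes) with a median of -0.10, and mt-Cytb (0.12) and mt-Co1 (0.03) were higher.

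With bleomycin, the libraries of both ages differed mainly in the mitochondrial members. The nuclear members had a median log2 ratio of 12 against 3 months of 0.01, with 39 of 75 higher (52.0%, beside 49.2% of all genes) and none past 1.5-fold (backgrounds 13.0% higher and 9.47% lower, or 3.33% and 2.71% at 20 CPM or more, where 48.4% of all genes were higher). Cox6b2 (0.50), Cox4i2 (0.42), Atp5b (0.32), Uqcrc1 (0.30) and Ndufv3 (0.27) had log2 ratios above 0, while Cox7a1 (-0.44), Atp5sl (-0.30), and, in complex I, Ndufb10 (-0.26) and Ndufb9 (-0.19) had log2 ratios below 0. These values varied with depth. In cells of 4000 to 8000 UMIs they were 0.74 for Cox6b2, 0.05 for Cox4i2, 0.13 for Atp5b, 0.10 for Uqcrc1 and 0.35 for Ndufv3. There Cox7a1 had -0.50, Atp5sl -0.34, Ndufb10 -0.17 and Ndufb9 -0.20. All 13 mitochondrial members were lower at 12 months (50.8% of all genes were), 8 of them at least 1.5-fold (61.5%, beside 9.47% of all genes), with a median of -0.66 and a sum 1.5-fold lower. In cells of 4000 to 8000 UMIs that median was -0.14 and only mt-Nd6 of the 13 was past 1.5-fold (beside 10.4% of all genes lower and 21.7% higher, where 1 nuclear member was higher), so the difference was smaller among these cells, which are 834 and 362 of the kept bleomycin cells. The all-gene shares in those cells carry the limit of added counts given above. The mitochondrial difference was larger in deeper cells. The median mitochondrial share was 3.25% at 3 months and 2.45% at 12 months in cells of 8000 to 12000 UMIs (909 and 715 cells, log2 ratio -0.41), and 2.92% and 1.85% in cells of 12000 to 20000 UMIs (374 and 1084 cells, log2 ratio -0.66).

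Genes that supply, build or serve the complexes were counted as lists, fixed with results of these data known. Each list is to be read beside all genes with 10 or more UMIs. Of these, 52.6% were higher with bleomycin at 3 months and 57.9% at 12 months, with median log2 ratios of 0.04 and 0.13. Complex II, which feeds electrons from succinate and is wholly nuclear, had all 4 genes higher at both ages, with medians of 0.42 and 0.54. Sdhb, its iron-sulfur subunit, stood at 94.0, 93.2, 131 and 156 CPM, and Sdha, the flavoprotein, at 77.5, 75.8, 86.3 and 79.6 CPM. All 9 genes of electron carriers and inner membrane carriers were higher at both ages, with medians of 0.35 and 0.39. Ucp2, an inner membrane carrier of the uncoupling protein family, stood at 261, 226, 350 and 472 CPM, and Slc25a4, the ADP and ATP exchanger, at 123, 144, 189 and 222 CPM.

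Assembly factors of complex I were higher in 10 of 14 at both ages (medians 0.22 and 0.15, the latter near the 0.13 of all genes). Those of complexes III to V were higher in 21 and 22 of 30 (0.17 and 0.31). Cox17, a copper chaperone for complex IV, stood against this at 311, 297, 217 and 202 CPM, with log2 ratios of -0.52 and -0.56. Of 77 mitochondrial ribosome genes, whose products translate the 13 mitochondrial messages, 64 and 68 were higher (0.22 and 0.34). At least 1.5-fold higher were 8 (10.4%) and 19 (24.7%), which is below the 20.5% and 26.2% of all genes. Genes of mitochondrial DNA upkeep and transcription had 7 of 15 higher at both ages and a median of -0.01 at both. Tfam, which packs mitochondrial DNA and starts its transcription, stood at 20.2, 20.2, 17.6 and 16.3 CPM, and Polg, the mitochondrial DNA polymerase, at 32.7, 29.7, 26.2 and 18 CPM. Regulators of respiratory genes had 5 and 4 of 10 higher, with medians of -0.01 and -0.14.

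The TCA cycle, which supplies NADH and succinate, had 12 and 13 of 16 genes higher (0.25 and 0.44). Its Fh1, fumarate hydratase, stood at 33.4, 30.9, 51.6 and 56.5 CPM. Glycolysis had 14 and 13 of 16 higher (0.39 and 0.47), with Eno1, an enolase, at 29.7, 22.6, 68.6 and 109 CPM, and Hk2, a hexokinase, at 121, 120, 44.9 and 36.3 CPM. Hk2 was the lowest of that list, with log2 ratios of -1.43 and -1.73. Import and inner membrane genes had 14 and 16 of 19 higher (0.13 and 0.22), and mitochondrial dynamics and mitophagy 4 and 3 of 11 (-0.08 and -0.20). Mitochondrial chaperones and proteases had 6 of 10 higher at both ages (0.11 and 0.13), and mitochondrial RNA processing 13 and 12 of 17 (0.09 and 0.16). The medians of these last lists lay near those of all genes (0.04 and 0.13). Of 89 genes named Rpl or Rps, mostly cytosolic ribosomal proteins, 79 and 80 were lower (-0.38 and -0.33), beside 47.4% and 42.1% of all genes. Their sum stood at 150146, 147161, 110784 and 109025 CPM. As CPM are parts of a whole, the levels of the members stand beside these sums.

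**Figure D5:**
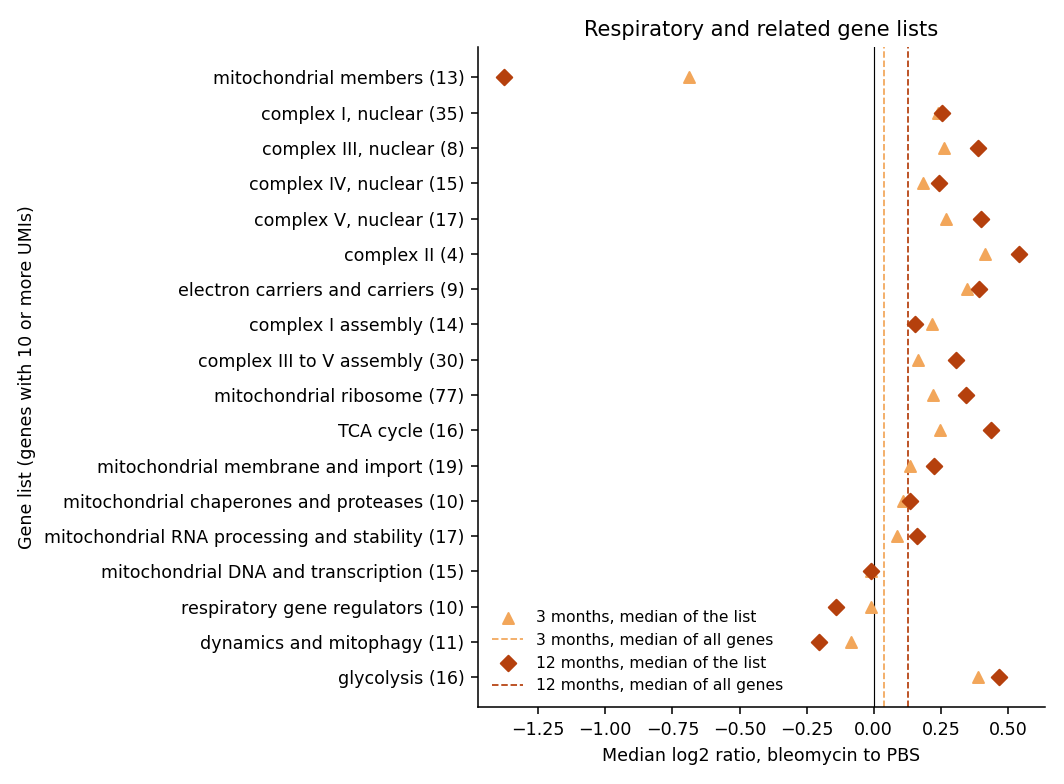
Median log2 ratio of bleomycin to PBS (x axis) at 3 and 12 months for the mitochondrial members, the nuclear members by complex and each other list (y axis, number of genes in brackets), with dashed lines at the median over all genes with 10 or more UMIs. The mitochondrial members stand lowest (-0.69 and -1.38), and complex II (0.42 and 0.54) and glycolysis (0.39 and 0.47) stand above the nuclear members of complex I (0.24 and 0.25).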

How the data were processed

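The deposited counts are whole numbers of UMIs per gene and cell barcode. They were made, per the submitters' processing notes, with Cell Ranger on mouse build mm10, and Seurat 3.2.2 is named there; a version of Cell Ranger and how reads matching several genes were treated are not given in the sources used here. Cell filters were applied as the report states, and the kept cells of each library were summed (Python 3.11.15, numpy 2.4.6, pandas 2.3.3). The kept totals run from 10896642 to 31849343 UMIs, so that 1 UMI is worth 0.0918 to 0.0314 CPM. Log2 ratios add 0.5 UMIs to each sum; intervals are exact 95% binomial or Poisson ones (scipy 1.17.1) and cover counting error only, with a normal approximation for differences between log2 ratios. With 1 library per group no model was fitted and no p-value is given; a gene counts as past the line at 1.5-fold. The computation was tested on simulated data.

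Doublets were called with scanpy 1.11.5 (48, 63, 56 and 72 barcodes) and kept. Shared sequence was searched with BLAST 2.17.0, coordinates come from GENCODE on GRCm38, promoters from RefSeq on GRCm38.p6, and figures were drawn with matplotlib 3.10.9. Named genes are all mitochondrial members, Cox6a2, isoforms with their counterparts, 7 anchor subunits (1 of them is not reported here), the 4 nuclear members highest and lowest in each comparison among those at a mean of 20 CPM or more, and up to 3 of each other list; Nrf1, Gabpa and Yy1 were added for the motifs, and other genes named outside this rule were chosen after their values were seen. Members, lists and alternatives were chosen with earlier results of these data known.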

Additional observations from a re-analysis of the deposited data

Results flagged for a closer look

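Ndufb4, an accessory subunit in the membrane arm of complex I, was higher with bleomycin at 3 months and lower at 12 months. It stood at 299.6, 316, 314 and 289 CPM, from 3265, 4200, 6535 and 9207 UMIs, in the order 3-month PBS, 12-month PBS, 3-month bleomycin and 12-month bleomycin. Its log2 ratio of bleomycin to PBS was 0.07 at 3 months and -0.13 at 12 months, and the difference of both was -0.19. With 1 library per group the difference was not tested; its counting interval runs from -0.27 to -0.11. Over the alternatives the ratio lay between 0.03 and 0.17 at 3 months and between -0.19 and -0.02 at 12 months. Ndufb4 was not alone in this pattern. Ndufb3, Ndufb10, Ndufb11 and Ndufs7 were also below a log2 ratio of 0 at 12 months alone, with 0.22 and -0.06 for Ndufb10. Atp5e, Atp5k and Cox7c went the other way.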

How the results depend on the processing

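Each count of members past 1.5-fold was recomputed under 15 alternatives (other scalings, cell filters, doublets, thinning, depth, level minimums, and members without shared sequence, the last chosen after seeing the data), and 113 of 120 values stayed within 1.5 times the reported one. Part of this was fixed in advance. Some reported counts were 0, where a recomputed 0 counts as kept, and alternatives that change only the nuclear members cannot move the mitochondrial counts. In cells of 4000 to 8000 UMIs the nuclear members at least 1.5-fold higher were 7 at 3 months (reported 11), and the mitochondrial members at least 1.5-fold lower were 4 at 3 months (9), 7 at 12 months (13) and 1 between the ages in bleomycin (8). The nuclear members higher between the ages in bleomycin were 1 (0) in those cells and also 1 after thinning to 3000 UMIs, and 1 between the PBS libraries when members with any UMI were counted. mt-Co2 was no longer lower: its log2 ratio at 12 months was 0.014 in cells of 4000 to 8000 UMIs, against -0.72. The median log2 ratio of the nuclear members lay between 0.21 and 0.34 at 3 months and 0.26 and 0.33 at 12 months, and that of the mitochondrial members between -0.71 and -0.37, and -1.44 and -0.59. Cox6a2 lay between -0.56 and -0.17 at 3 months and -2.64 and -1.57 at 12 months. Between the PBS libraries, scaling by the median of ratios put 56 nuclear members above 0 (reported 26) and 6 mitochondrial members below 0 (11). The cause of these shifts was not tested. No paired analysis was possible because each group has 1 library, and for the same reason no library could be left out.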

Other observations

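Cells that held less than 5% Sftpc UMIs and passed the other filters numbered 86, 175, 325 and 543 in the order 3-month PBS, 12-month PBS, 3-month bleomycin and 12-month bleomycin. Their nuclear members took 2.71%, 2.53%, 2.64% and 2.90% of UMIs, and the mitochondrial members 3.87%, 3.87%, 3.30% and 3.04%. The median log2 ratio of bleomycin to PBS in these cells was -0.02 at 3 months and 0.24 at 12 months for the nuclear members, and -0.26 and -0.60 for the mitochondrial ones. These cells are few and of several kinds, and the values are given with no comparison to the kept cells.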
